A study of Mus musculus with 2 samples.

Results

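Vegfa, Vegfc, Pgf, Kdr, Flt1, Flt4, Angpt1, Angpt2, Tek and Tie1 encode the main ligands and receptors of vascular endothelial growth factor (VEGF) and angiopoietin signalling. They were chosen by gene symbol, and all 10 were found among the 55488 genes counted in both libraries. The data are single-cell RNA-seq of dissociated kidneys from neonatal (P0) mice, although the tissue label reads embryonic kidney. The Flcn KO library came from Six2Cre; Flcn flox/flox kidneys. Its control, labelled Flcn WT, came from Six2Cre; Flcn flox/+ kidneys, so both groups carry the Cre transgene, and the control is heterozygous for the floxed Flcn allele rather than free of it. Six2Cre acts in nephron progenitors and therefore in the podocytes and tubules that descend from them, while endothelium, stroma, mural cells, immune cells and the ureteric tree lie outside that lineage. Flcn encodes folliculin, and the series asks how its loss in the nephron lineage alters gene expression in the kidney. Each group is 1 library, and how many animals each holds is not given in the sources used here. No difference below has a replicate check. The 95% intervals are exact and cover counting error only, and no p-value is given.

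VEGF-A is secreted by podocytes and tubules and binds the endothelial receptors KDR (VEGFR2) and FLT1 (VEGFR1). In the glomerulus, VEGF-A from podocytes maintains the neighbouring fenestrated capillaries. VEGF-C signals through FLT4 (VEGFR3) and KDR and is known for lymphatic growth, and placental growth factor (Pgf) binds FLT1. Angiopoietin 1 activates the receptor TEK (TIE2) and stabilises vessels, angiopoietin 2 acts mostly as a context-dependent antagonist, and TIE1 is a related receptor that modulates TEK.

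In the GRCm38 annotation the ligand genes lie at chr17:46016993-46032369 (Vegfa, minus strand), chr8:54077606-54187096 (Vegfc, plus), chr12:85166635-85177790 (Pgf, minus), chr15:42424723-42676977 (Angpt1, minus) and chr8:18690263-18741562 (Angpt2, minus). The receptor genes lie at chr5:75932827-75978458 (Kdr, minus), chr5:147561604-147726011 (Flt1, minus), chr11:49609263-49652739 (Flt4, plus), chr4:94739289-94874976 (Tek, plus) and chr4:118471191-118490061 (Tie1, minus). All 10 are protein coding, and each value below is the gene's whole UMI count.

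After filtering, 4837 Flcn KO and 4047 Flcn WT cells were kept, with medians of 18510 and 20994 UMIs (unique molecular identifiers, each standing for 1 captured transcript). Cells were clustered without the 10 genes, and clusters were named by marker lists that hold none of them. Each class name below means cells that resemble that type by markers. The 12 classes compared ranged from 11 Flcn KO and 41 Flcn WT intercalated cells to 1891 Flcn KO and 1075 Flcn WT stromal cells. A further 452 Flcn KO and 467 Flcn WT cells stayed unnamed. Endothelium made up 465 Flcn KO cells (9.61%) and 298 Flcn WT cells (7.36%), and its 9 markers summed to 6288 CPM in Flcn KO and 6380 CPM in Flcn WT. CPM here is a class's UMIs of a gene per 1000000 of its UMIs of all nuclear genes, within 1 library. Because reads come from the 3′ end, levels are compared between classes and libraries within a gene, not between genes. Only 5 barcodes occurred in both libraries. Flcn itself, read at the 3′ end, does not check the labels, because the part deleted is not given in the sources used here. Its ratio of Flcn KO to Flcn WT was 1.06 in nephron progenitors, 0.586 in proximal tubule and 1.75 in podocytes.

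The receptors are the endothelial side of the pathway, and their promoters are shown because all 5 shared the endothelial restriction described below. Sequences are the 250 bases before the RefSeq transcription start (GRCm38.p6), on the coding strand, with capitals marking GGAAGT or its reverse complement ACTTCC, a form of the core bound by ETS factors.
Kdr (chr5:75978456-75978705, minus strand): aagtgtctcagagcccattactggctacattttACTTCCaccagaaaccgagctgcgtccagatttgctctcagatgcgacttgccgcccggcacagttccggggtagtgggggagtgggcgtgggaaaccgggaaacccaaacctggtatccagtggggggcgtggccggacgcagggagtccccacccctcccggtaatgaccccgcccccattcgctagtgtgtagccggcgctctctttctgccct
Flt1 (chr5:147726012-147726261, minus strand): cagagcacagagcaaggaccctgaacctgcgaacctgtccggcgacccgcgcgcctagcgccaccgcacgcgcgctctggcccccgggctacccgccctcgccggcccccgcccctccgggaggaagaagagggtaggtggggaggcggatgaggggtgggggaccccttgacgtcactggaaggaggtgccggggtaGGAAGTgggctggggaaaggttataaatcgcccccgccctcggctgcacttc
Flt4 (chr11:49609429-49609678, plus strand): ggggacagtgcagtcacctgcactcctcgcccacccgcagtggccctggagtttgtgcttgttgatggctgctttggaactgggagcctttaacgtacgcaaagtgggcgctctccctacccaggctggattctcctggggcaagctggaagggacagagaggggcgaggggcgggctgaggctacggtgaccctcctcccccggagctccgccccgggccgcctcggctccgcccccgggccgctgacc
Tek (chr4:94739039-94739288, plus strand): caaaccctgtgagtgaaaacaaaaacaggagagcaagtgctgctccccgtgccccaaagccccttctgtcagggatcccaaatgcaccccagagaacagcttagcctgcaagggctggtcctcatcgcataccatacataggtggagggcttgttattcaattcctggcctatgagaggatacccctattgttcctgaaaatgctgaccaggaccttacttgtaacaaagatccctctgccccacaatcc
Tie1 (chr4:118489850-118490099, minus strand): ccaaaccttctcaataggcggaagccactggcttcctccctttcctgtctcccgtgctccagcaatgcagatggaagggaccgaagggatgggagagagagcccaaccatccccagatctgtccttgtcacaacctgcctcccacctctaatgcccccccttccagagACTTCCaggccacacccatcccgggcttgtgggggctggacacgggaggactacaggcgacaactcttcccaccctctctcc
The match lay 217 bases before the start in Kdr, 52 bases before it in Flt1 and 82 bases before it in Tie1, and the Flt4 and Tek windows held none. Of the 10 genes, 8 had a window, and Angpt1 and Angpt2 are named only. GGAAGT on either strand occurred in 3 of 5 receptors (Kdr, Flt1 and Tie1) and in 0 of 3 ligand genes (Vegfa, Vegfc and Pgf). It occurred in 6485 of 32851 windows of that length over all genes, or 19.7%. Vegfa and Pgf had 2 windows each. ACGTG on either strand, also searched, occurred in 1 Vegfa window and in no other window of these genes. Over all genes it occurred in 16.6% of windows. A match is a description of letters, not a binding site.

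Angpt1 and Angpt2 were lower in proximal tubule of Flcn KO, while none of the 5 receptors differed by 1.5-fold in endothelium as a whole. Angpt1 was lower in both proximal tubule clusters, but Angpt2 only in the one led by Aadat and Kap. A difference was called past the fold when the ratio reached 1.5 in either direction with at least 20 UMIs over both libraries. Of 120 pairs of gene and class, 77 had enough UMIs. Flcn KO was higher in 13, lower in 16, and neither in 48. Within single classes, between 6.41% and 12.5% of all genes were higher and between 4.87% and 17.8% lower. The ligands gave 4 higher and 12 lower among 48 pairs. The receptors gave 9 higher and 4 lower among 29 pairs, and all 13 lay outside endothelium, in classes where these receptors had at most 196 UMIs in one library. Over 13 processing settings, 10 of the 29 called pairs kept the call wherever a ratio was given, and 19 lost it in at least 1. Flt1 in distal tubule, among the 10, had a ratio in only 11 settings. Of the ligand pairs 7 of 16 kept the call, among them both angiopoietins in proximal tubule, and of the receptor pairs 3 of 13. The settings include the main one and the one with no minimum of UMIs, where a called pair's ratio cannot change. The alternative scalings among them moved no call. Calls gained under other settings are not in these counts.

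**Figure D1:**
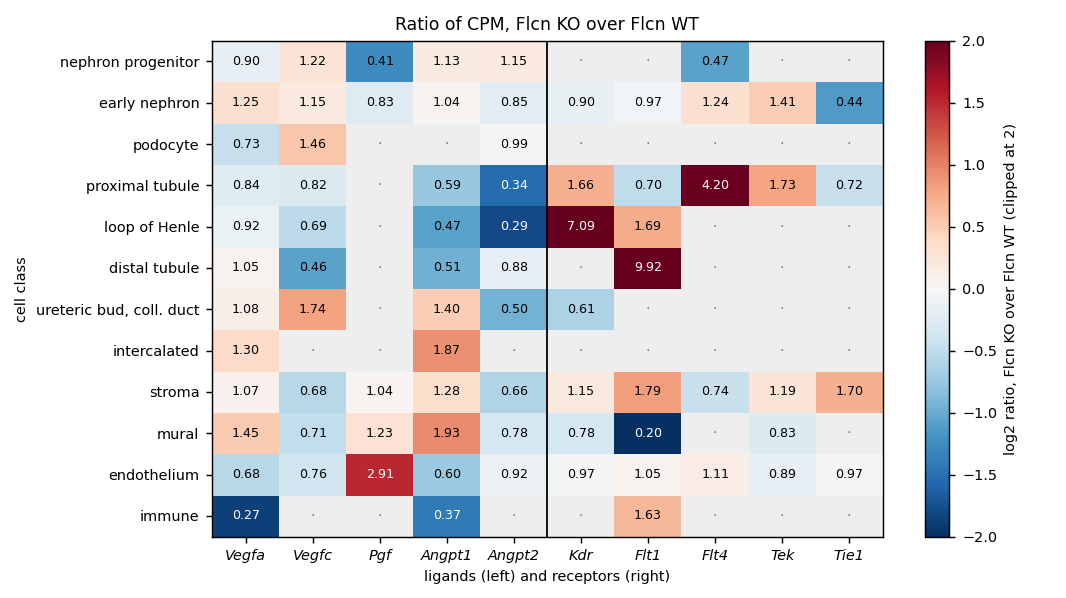
Ratio of Flcn KO to Flcn WT CPM for each cell class (rows) and gene (columns), printed as a linear ratio and coloured by its log2 value (clipped at 2), with a dot for pairs under 20 UMIs over both libraries. Angpt1 lies on both sides of 1, at 0.594 in proximal tubule and 1.93 in mural cells, while the receptors stay within 1.5-fold in endothelium.

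Vegfa, the principal angiogenic ligand of the kidney, was highest in podocytes of both libraries. Podocytes held 358 CPM in Flcn KO (1166 UMIs in 118 cells) and 491 CPM in Flcn WT (2653 UMIs in 194 cells). The ratio was 0.729 (0.68 to 0.781), short of the 1.5-fold limit. Over 13 settings it was 0.665 to 0.812, and the lowest, with no doublets removed, was just past the limit. The median podocyte had 2.83 Vegfa UMIs per 10000 in Flcn KO and 3.76 in Flcn WT. With each cell thinned to 3000 UMIs, 57.0% of Flcn KO and 63.0% of Flcn WT podocytes held a Vegfa UMI, against 1.09% of Flcn KO and 2.7% of Flcn WT endothelial cells. Without thinning the podocyte shares were 91.5% in Flcn KO and 93.3% in Flcn WT, at medians of 20003 and 17866 UMIs. The 8 podocyte markers also summed lower in Flcn KO podocytes, at 9580 CPM against 11846 CPM in Flcn WT, and their part in the difference was not tested. In the podocyte class 0 of the 3 genes with enough UMIs were past the fold, where 10.9% of all genes were higher and 9.32% lower.

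Outside podocytes Vegfa was spread over the tubule segments. Distal tubule had 95.5 CPM in Flcn KO and 91.2 CPM in Flcn WT. Loop of Henle had 73.2 CPM in Flcn KO and 79.9 CPM in Flcn WT (ratio 0.917, 0.835 to 1.01). Proximal tubule had 68.4 CPM in Flcn KO and 81.2 CPM in Flcn WT (ratio 0.843, 0.783 to 0.907). In each of these 3 segments the libraries stayed within 1.5-fold. Early nephron went the other way, with 70.7 CPM in Flcn KO and 56.7 CPM in Flcn WT (ratio 1.25, 1.15 to 1.35). Stroma had 34.4 CPM in Flcn KO and 32.2 CPM in Flcn WT, and endothelium had 6.26 CPM in Flcn KO and 9.22 CPM in Flcn WT. Mural cells had 24.8 CPM in Flcn KO and 17.1 CPM in Flcn WT (ratio 1.45, 0.989 to 2.15). Intercalated cells had 104 CPM in Flcn KO and 79.8 CPM in Flcn WT (ratio 1.30). As a mean over cells the ratio was 1.61 in both classes, past the fold. Under the main setting the one Vegfa pair past the fold was in immune cells. They had 6.38 CPM in Flcn KO and 23.6 CPM in Flcn WT, from 13 Flcn KO and 21 Flcn WT UMIs. Of 3 genes tested in that class 1 was higher and 2 lower, where 10.4% of all genes were higher and 11.6% lower. In early nephron 0 of 10 genes were higher and 1 (Tie1) lower, where 6.71% of all genes were higher and 6.91% lower. The share of all Vegfa UMIs that came from podocytes was 15.7% in Flcn KO and 27.8% in Flcn WT with 118 Flcn KO and 194 Flcn WT podocytes captured.

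**Figure D2:**
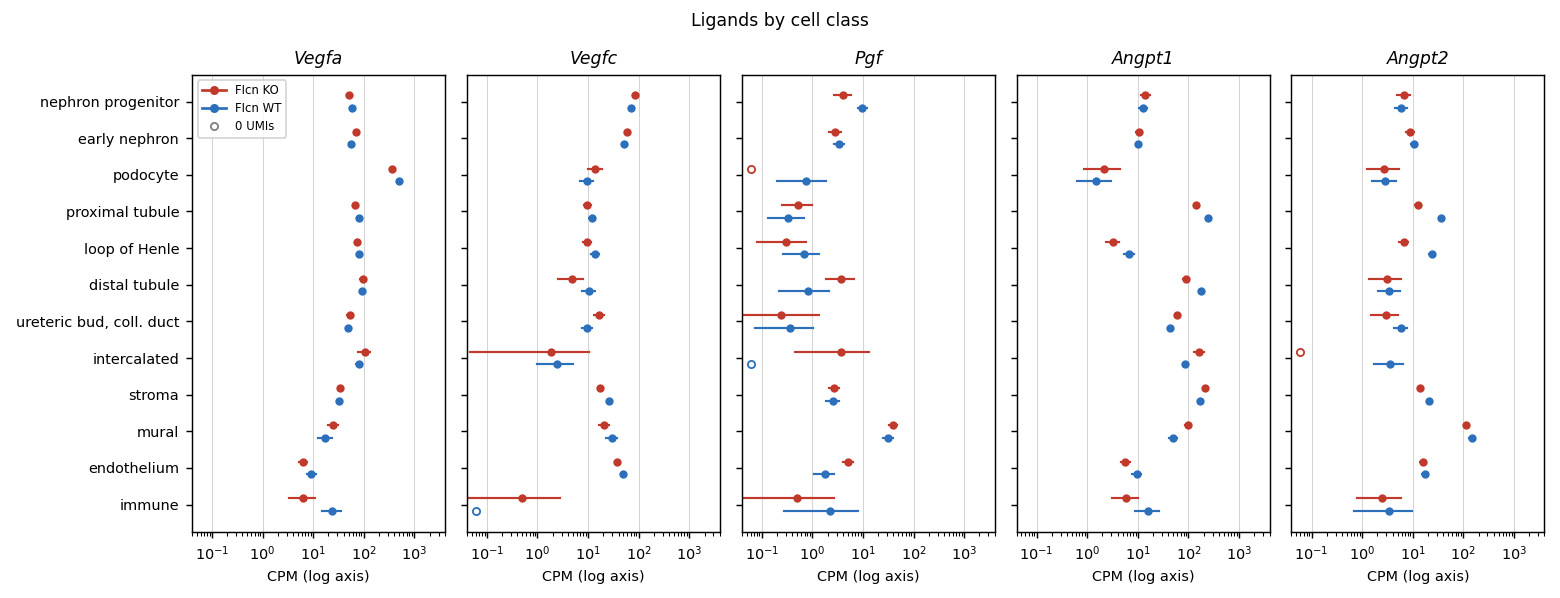
CPM of the 5 ligands in each of 12 cell classes on a log axis, with Flcn KO (red) above Flcn WT (blue), lines giving exact 95% counting intervals and open circles marking 0 UMIs. Vegfa peaks in podocytes (358 CPM in Flcn KO, 491 CPM in Flcn WT), Vegfc in nephron progenitors, Pgf and Angpt2 in mural cells, and Angpt1 in stroma of Flcn KO but proximal tubule of Flcn WT.

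Vegfc, the lymphangiogenic ligand, was highest in nephron progenitors among the named classes. It reached 84.7 CPM in Flcn KO progenitors and 69.7 CPM in Flcn WT progenitors (ratio 1.22, 1.09 to 1.36). With cells thinned to 3000 UMIs, 18.9% of Flcn KO and 15.9% of Flcn WT progenitors held a Vegfc UMI, against 3.01% of Flcn KO and 2.7% of Flcn WT proximal tubule cells. Early nephron followed at 57.7 CPM in Flcn KO and 50.2 CPM in Flcn WT, and endothelium at 37.3 CPM in Flcn KO and 48.9 CPM in Flcn WT (ratio 0.762, 0.678 to 0.857). A few cells carried the endothelial value, with 40, 38 and 36 of 644 UMIs in the top Flcn KO cells and 117, 94 and 87 of 531 UMIs in the top Flcn WT cells. Without the highest cell of each library the ratio was 0.917, with an interval of 0.808 to 1.04 that includes 1. In Flcn WT the intervals of early nephron and endothelium overlapped, so their order is not resolved there. An unnamed cluster led by Dab1, Kcnq5 and Wnt4 held more than any named class, at 189 CPM in Flcn KO and 159 CPM in Flcn WT. Over the unnamed cells together 1 of 9 genes tested was higher (Kdr, ratio 3.02) and 2 lower (Pgf, 0.58, and Flt4, 0.526), where 6.77% of all genes were higher and 8.62% lower.

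Vegfc was past the fold in a pair of low-expressing epithelia. Ureteric bud and collecting duct had 16.6 CPM in Flcn KO and 9.56 CPM in Flcn WT (ratio 1.74, 1.24 to 2.43), which was 1.49 at Leiden resolution 0.5. Of 5 genes tested in that class 1 was higher and 2 lower, where 6.89% of all genes were higher and 5.46% lower. Distal tubule had 4.72 CPM in Flcn KO (14 UMIs) and 10.2 CPM in Flcn WT (50 UMIs), a ratio of 0.463 (0.236 to 0.85). It was 0.783 with a mitochondrial limit of 10% and 0.841 as a mean over cells, but 0.185 at Leiden resolution 0.5 and 0.0709 with at least 2000 UMIs and 1000 genes. The distal classes differed in other ways, with a median of 38957 UMIs in Flcn KO and 19614 UMIs in Flcn WT cells. The 10 immune markers summed to 235 CPM in Flcn KO and 29.6 CPM in Flcn WT distal tubule, where Adgre1 was at 0 in Flcn KO and C1qa, Lyz2, Tyrobp and S100a8 at 0 in Flcn WT. The part of depth and of these markers in the distal ratios was not tested. Of 5 genes tested there 1 was higher and 2 lower, where 12.4% of all genes were higher and 10.9% lower. Stroma had 17.5 CPM in Flcn KO and 25.7 CPM in Flcn WT (ratio 0.68), just inside the limit. The value in loop of Henle was 9.61 CPM in Flcn KO and 13.8 CPM in Flcn WT (ratio 0.694).

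Pgf, the FLT1 ligand, was low and had its highest level in mural cells. Mural cells had 39.0 CPM in Flcn KO and 31.8 CPM in Flcn WT (ratio 1.23, 0.922 to 1.65). Thinned to 3000 UMIs, 10.9% of Flcn KO and 8.94% of Flcn WT mural cells held a Pgf UMI, against 0.273% of Flcn KO and 0% of Flcn WT proximal tubule cells (0 of 444, with a Clopper-Pearson upper limit of 0.827%). Endothelium had 5.10 CPM in Flcn KO (88 UMIs) and 1.75 CPM in Flcn WT (19 UMIs), a ratio of 2.91 (1.76 to 5.06). In endothelium 6.41% of all genes were higher and 4.87% lower, and 1 of the 10 genes was higher and 1 lower. Of the 88 Flcn KO UMIs, 55 lay in 53 arterial cells (27.8 CPM), while 40 Flcn WT arterial cells held 0. A count of 0 allows up to 2.09 CPM (3 counts over the group). In the clustering of all cells, an endothelial cluster led by Sox17, Gja4 and Aqp1 (50 Flcn KO and 35 Flcn WT cells) held 56 Pgf UMIs in Flcn KO and 4 in Flcn WT, a ratio of 9.41 (3.48 to 35.7). The highest Flcn KO endothelial cells held 15, 12 and 7 of the 88 UMIs, and 28 of 465 held any. In Flcn WT 10 of 298 held any. Nephron progenitors had 4.0 CPM in Flcn KO (28 UMIs) and 9.73 CPM in Flcn WT (93 UMIs), a ratio of 0.411 (0.259 to 0.633). In progenitors 0 of the 6 genes tested were higher and 2 lower, where 6.45% of all genes were higher and 7.4% lower.

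Angpt1, the TEK agonist, was the one ligand of the 5 whose highest class differed between libraries. It was lower in proximal and distal tubule and higher in mural cells of Flcn KO. Proximal tubule had 141 CPM in Flcn KO (2665 UMIs) and 238 CPM in Flcn WT (4966 UMIs), a ratio of 0.594 (0.566 to 0.623). In that class 12.5% of all genes were higher and 13.6% lower, and among the 9 genes with enough UMIs 3 were higher and 2 lower. Distal tubule had 89.0 CPM in Flcn KO and 174 CPM in Flcn WT (ratio 0.513, 0.445 to 0.589), and the ratio was 0.669 with at least 2000 UMIs and 1000 genes and 0.815 with no doublets removed. The depth and immune marker values given for distal tubule with Vegfc stand beside this ratio too. Loop of Henle, a low-expressing segment, had 3.20 CPM in Flcn KO and 6.78 CPM in Flcn WT (ratio 0.473, and 0.218 to 0.626 over 13 settings). Of 6 genes tested in loop of Henle 2 were higher and 2 lower, where 11.3% of all genes were higher and 17.8% lower. Thinned to 3000 UMIs, 21.6% of Flcn KO and 36.3% of Flcn WT proximal tubule cells held an Angpt1 UMI, against 0 of 114 Flcn KO and 0 of 192 Flcn WT podocytes (Clopper-Pearson upper limits of 3.18% and 1.90%).

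Proximal tubule cells fell into a pair of clusters that the libraries filled unequally, and Angpt1 was lower in Flcn KO in both. The cluster led by Gpx3 and Slc5a12 held 202 Flcn KO and 155 Flcn WT cells, with 186 CPM in Flcn KO and 432 CPM in Flcn WT (ratio 0.431, 0.407 to 0.457). The cluster led by Aadat and Kap held 168 Flcn KO and 293 Flcn WT cells, with 84.2 CPM in Flcn KO and 150 CPM in Flcn WT (ratio 0.56, 0.513 to 0.61). The 10 proximal tubule markers summed to 9829 CPM in Flcn KO and 15251 CPM in Flcn WT, and their part in the difference was not tested.

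Stroma, the interstitial mesenchyme, had 211 CPM of Angpt1 in Flcn KO (6457 UMIs) and 165 CPM in Flcn WT (2955 UMIs). The ratio was 1.28 (1.22 to 1.34), inside the limit, and 1.08 with a marker score of at least 0.45. Cluster ratios ran from 0.948 to 1.64, and 1 of 7 stromal clusters passed the limit on the higher side. That was a cycling cluster led by Birc5 and Mki67 (212 CPM in Flcn KO, 129 CPM in Flcn WT). The cluster lowest in Angpt1, led by Gria1 and Ntn1, had 43.0 CPM in Flcn KO and 41.5 CPM in Flcn WT. It held 349 of 1891 Flcn KO and 295 of 1075 Flcn WT stromal cells. The part of this mix in the class ratio was not tested. The stromal markers summed to 4802 CPM in Flcn KO and 4778 CPM in Flcn WT. Mural cells, the pericytes and smooth muscle of vessels, had 96.2 CPM in Flcn KO and 49.8 CPM in Flcn WT (ratio 1.93, 1.56 to 2.40), and the ratio of means over cells was 1.48. Of 8 genes tested there 1 was higher and 1 lower, where 8.73% of all genes were higher and 7.2% lower. The 8 mural markers summed to 12039 CPM in Flcn KO and 16599 CPM in Flcn WT, and their part in this ratio was not tested. Stroma held 59.9% of all Angpt1 UMIs in Flcn KO and 28.7% in Flcn WT, while proximal tubule held 24.7% in Flcn KO and 48.2% in Flcn WT. Stroma was also 39.1% of Flcn KO and 26.6% of Flcn WT cells. In order of level, Flcn KO had stroma first, then intercalated cells and proximal tubule with overlapping intervals. Flcn WT had proximal tubule first, then distal tubule and stroma with overlapping intervals.

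Outside the Six2 lineage Angpt1 was also called in intercalated cells and endothelium, but not under every setting. Intercalated cells had 163 CPM in Flcn KO and 87.1 CPM in Flcn WT (ratio 1.87, 1.45 to 2.40), from 11 Flcn KO and 41 Flcn WT cells, and the ratio was 0.948 with no doublets removed. Of 2 genes tested there 1 was higher and 0 lower, where 11.3% of all genes were higher and 12.6% lower. Ureteric bud and collecting duct had 60.5 CPM in Flcn KO and 43.1 CPM in Flcn WT (ratio 1.4), where 1 Flcn KO cell held 51 of 251 UMIs and the ratio without the highest cell of each library was 1.19. With at least 2000 UMIs and 1000 genes it was 0.606, past the fold on the lower side. By cluster it was 0.759 (54 Flcn KO and 101 Flcn WT cells), 0.927 (17 Flcn KO and 15 Flcn WT cells) and 3.48 (8 Flcn KO and 50 Flcn WT cells). Endothelium had 5.62 CPM in Flcn KO and 9.40 CPM in Flcn WT (ratio 0.598, 0.448 to 0.797), and the ratio was 0.996 with no doublets removed and 1.14 as a mean over cells. In immune cells 12 Flcn KO and 14 Flcn WT UMIs gave a ratio of 0.374, with 12 of the 14 in 1 cell.

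Angpt2, the context-dependent TEK antagonist, was highest in mural cells of both libraries. Mural cells had 115 CPM in Flcn KO and 147 CPM in Flcn WT (ratio 0.781, 0.675 to 0.903). Thinned to 3000 UMIs, 29.8% of Flcn KO and 30.9% of Flcn WT mural cells held an Angpt2 UMI, against 0% of Flcn KO immune cells (0 of 183, upper limit 1.996%) and 1.25% of Flcn WT immune cells. Among the called Angpt2 pairs proximal tubule had the most UMIs, at 12.7 CPM in Flcn KO (239 UMIs) and 36.9 CPM in Flcn WT (769 UMIs), a ratio of 0.344 (0.296 to 0.398). Within it, the cluster led by Aadat and Kap had 25 CPM in Flcn KO and 52.9 CPM in Flcn WT (ratio 0.472). The cluster led by Gpx3 and Slc5a12 gave a ratio of 1.84 with an interval of 0.91 to 4.05. The class ratio of 0.344 lay below both cluster ratios. The Aadat cluster held 168 Flcn KO and 293 Flcn WT cells, the Gpx3 cluster 202 Flcn KO and 155 Flcn WT cells. The part of this mix in the class ratio was not tested. Loop of Henle had 6.70 CPM in Flcn KO and 23.5 CPM in Flcn WT (ratio 0.286). A pair of Flcn WT cells held 98 and 46 of its 246 UMIs, and the ratio without the highest cell of each library was 0.307. Of 13 settings 0 gave a lower ratio, and 5 ended the call, at 0.694 with at least 2000 UMIs and 1000 genes, 0.739 at Leiden resolution 0.5, at resolution 2 and with the 10 genes among the variable genes, and 0.793 with a mitochondrial limit of 10%.

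Stroma had 13.8 CPM of Angpt2 in Flcn KO and 20.9 CPM in Flcn WT (ratio 0.658, 0.571 to 0.759), just past the limit, and 7 settings ended the call, the farthest at 0.778 at Leiden resolution 0.5. In stroma 7.66% of all genes were higher and 5.61% lower, and 2 of the 10 genes were higher and 1 lower. The 7 stromal clusters did not move alike, with 2 past the fold on the higher side, 4 on the lower side and ratios of 0.151 to 2.10. A stromal cluster led by Dlk1, Postn and Dcn, chosen after its values were seen, had 80.7 CPM in Flcn KO and 196 CPM in Flcn WT (ratio 0.412). The receptor gene Tek was counted in that cluster as well, at 144 CPM in Flcn KO (109 UMIs) and 42.1 CPM in Flcn WT (20 UMIs). Ureteric bud and collecting duct had 12 Angpt2 UMIs in Flcn KO and 48 in Flcn WT (ratio 0.504). The endothelial level was 15.9 CPM in Flcn KO and 17.3 CPM in Flcn WT, within counting error.

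The 5 receptors were concentrated in endothelium, where their levels over the whole class in Flcn KO were within 1.5-fold of Flcn WT. Flt1, which binds VEGF-A and Pgf and limits VEGF-A supply, had 1680 CPM in Flcn KO (29006 UMIs) and 1600 CPM in Flcn WT (17362 UMIs), a ratio of 1.05 (1.03 to 1.07). Endothelium held 98.1% of Flt1 UMIs in Flcn KO and 97.6% in Flcn WT. Kdr, the main signalling receptor for VEGF-A, had 551 CPM in Flcn KO and 566 CPM in Flcn WT (ratio 0.973, 0.942 to 1.005). Flt4, the VEGF-C receptor, had 109 CPM in Flcn KO and 98.4 CPM in Flcn WT (ratio 1.11, 1.03 to 1.2). The angiopoietin receptor Tek had 513 CPM in Flcn KO and 576 CPM in Flcn WT (ratio 0.89, 0.861 to 0.919). The orphan relative Tie1 had 281 CPM in Flcn KO and 290 CPM in Flcn WT (ratio 0.969, 0.926 to 1.01). The intervals of Kdr and Tie1 include 1 and those of the other 3 do not, but all cover counting error only.

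Most endothelial cells held these transcripts at full depth, when Flt4 was seen in 74.2% of Flcn KO and 79.2% of Flcn WT cells. Kdr was seen in 96.8% of Flcn KO and 96.6% of Flcn WT endothelial cells, and Tek in 94.4% of Flcn KO and 96.3% of Flcn WT cells. At 3000 UMIs a cell the Kdr shares were 75.8% in Flcn KO and 77.4% in Flcn WT, against 0% of Flcn KO nephron progenitors (0 of 307, upper limit 1.19%) and 0.567% of Flcn WT nephron progenitors. The Tek shares at that depth were 68.2% in Flcn KO and 75% in Flcn WT. At full depth, Kdr and Flt1 were found together in 96.6% of Flcn KO and 96.3% of Flcn WT endothelial cells, and Tek and Tie1 in 90.5% of Flcn KO and 94.0% of Flcn WT cells. At 3000 UMIs a cell, Kdr and Flt1 were found together in 71.5% of Flcn KO and 72.6% of Flcn WT cells, and Tek and Tie1 in 38.1% of Flcn KO and 39.9% of Flcn WT cells. Full-depth medians in endothelium were 26181 UMIs in Flcn KO and 22143 UMIs in Flcn WT.

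**Figure D3:**
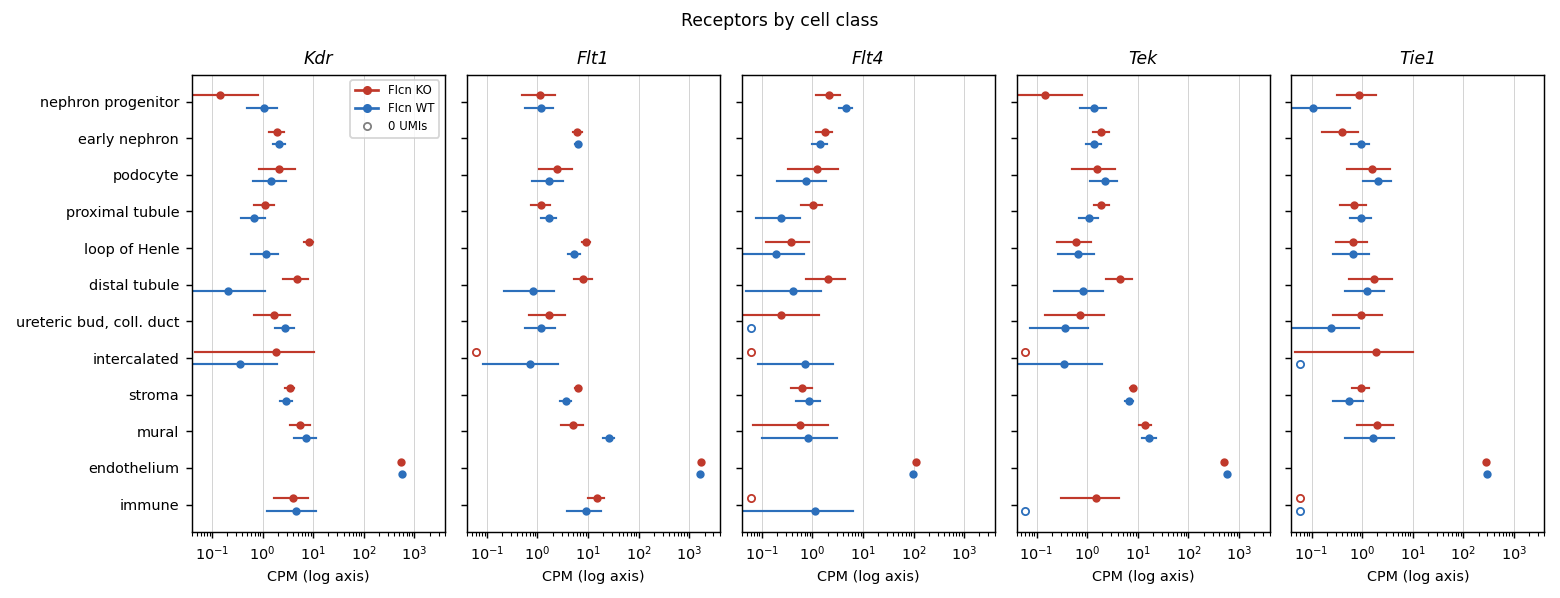
CPM of the 5 receptors in each cell class on a log axis, with Flcn KO (red) above Flcn WT (blue), exact 95% counting intervals as lines and open circles at 0 UMIs. Endothelium stands apart in every panel, as with Kdr at 551 CPM in Flcn KO and 566 CPM in Flcn WT.

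Within endothelium, 11 clusters were found again without the 10 genes, and Kdr ranged across them between 380 and 984 CPM in Flcn KO and between 307 and 1411 CPM in Flcn WT. A glomerular cluster of 18 Flcn KO and 15 Flcn WT cells, led by Ehd3, had the highest Kdr, at 984 CPM in Flcn KO and 1411 CPM in Flcn WT (ratio 0.698, 0.604 to 0.805). The other endothelial cells had 541 CPM in Flcn KO and 542 CPM in Flcn WT. Glomerular Flt1 was 1714 CPM in Flcn KO and 2099 CPM in Flcn WT (ratio 0.817). Capillaries of this type lie next to podocytes, and the values rest on 33 cells. With the 10 genes among the variable genes the cluster named glomerular held 2 Flcn KO and 9 Flcn WT cells, with Kdr at 1186 CPM in Flcn KO and 1841 CPM in Flcn WT, and at resolution 0.5 within endothelium no cluster took that name.

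Arterial endothelium, with 53 Flcn KO and 40 Flcn WT cells, carried most endothelial Vegfc. It held 265 CPM in Flcn KO and 326 CPM in Flcn WT, against 7.79 CPM in Flcn KO and 6.80 CPM in Flcn WT in the other endothelial cells. The 3 Flcn WT cells with 117, 94 and 87 Vegfc UMIs lay among the arterial cells, which held 467 of the 531 endothelial UMIs, so the Flcn WT level rests on few cells. The ratio was 0.813 (0.716 to 0.923), and 0.617 with the 10 genes among the variable genes. On a log2 scale the difference between arterial and other endothelium was 5.08 in Flcn KO and 5.57 in Flcn WT. Arterial Tek was low, at 178 CPM in Flcn KO and 295 CPM in Flcn WT. Its ratio of 0.602 (0.521 to 0.695) was past the fold on the lower side. Elsewhere in endothelium Tek had 556 CPM in Flcn KO and 619 CPM in Flcn WT. Arterial Flt4 was also low, at 41.4 CPM in Flcn KO and 34.2 CPM in Flcn WT, against 118 CPM in Flcn KO and 108 CPM in Flcn WT elsewhere. Angpt1 showed the reverse, with 24.2 CPM in Flcn KO and 24.4 CPM in Flcn WT arterial cells against 3.21 CPM in Flcn KO and 7.12 CPM in Flcn WT elsewhere. Arterial Tie1 was 285 CPM in Flcn KO and 320 CPM in Flcn WT, beside 280 CPM in Flcn KO and 285 CPM in Flcn WT in the other endothelial cells.

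A pair of unnamed endothelial clusters, chosen after their values were seen, differed in opposite directions for Kdr and Tek. A cluster led by Sntg2 and Ackr3 had 733 CPM of Kdr in Flcn KO and 735 CPM in Flcn WT, with Tek at 237 CPM in Flcn KO and 229 CPM in Flcn WT. A cluster led by Tmtc1 and Cdh2 had 380 CPM of Kdr in Flcn KO and 307 CPM in Flcn WT, with Tek at 785 CPM in Flcn KO and 859 CPM in Flcn WT. Angpt2 in that second cluster was 21.5 CPM in Flcn KO and 44.2 CPM in Flcn WT (ratio 0.487). Its interval was 0.317 to 0.744.

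**Figure D4:**
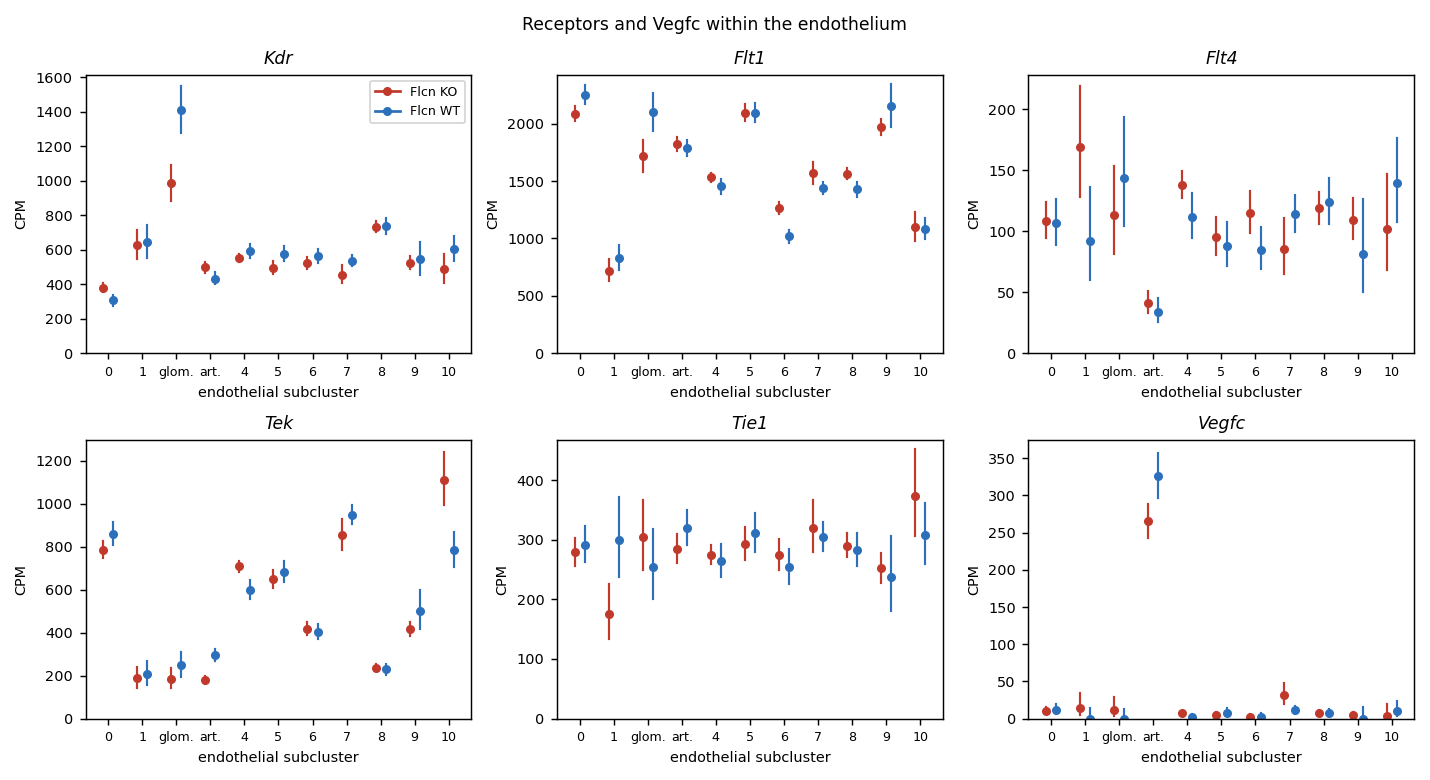
CPM of the 5 receptors and Vegfc in 11 endothelial subclusters (glom., glomerular; art., arterial; the rest unnamed, by number), with Flcn KO (red) left of Flcn WT (blue) and exact 95% counting intervals as lines. Kdr is highest in the glomerular cluster (984 CPM in Flcn KO, 1411 CPM in Flcn WT), and Vegfc is highest in the arterial cluster (265 CPM in Flcn KO, 326 CPM in Flcn WT).

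Outside endothelium the receptors were sparse, and in some called pairs 1 cell held most of the UMIs. Kdr in loop of Henle had 8.12 CPM in Flcn KO (109 UMIs) and 1.15 CPM in Flcn WT (12 UMIs), a ratio of 7.09 (3.90 to 14.1). One Flcn KO cell held 36 of the 109 UMIs and another held 20, and the first also held 5 UMIs of the 9 endothelial markers. Without the highest cell of each library the ratio was 6.33 (3.16 to 14.4), and over 13 processing settings it lay between 2.65 and 10.0. Those markers summed to 19.7 CPM in Flcn KO and 26.9 CPM in Flcn WT loop of Henle cells. Flt1 in the same class had 9.01 CPM in Flcn KO and 5.34 CPM in Flcn WT (ratio 1.69), which became 1.33 without the highest cells.

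Flt1 in distal tubule had 8.10 CPM in Flcn KO and 0.816 CPM in Flcn WT (ratio 9.92, from 24 Flcn KO and 4 Flcn WT UMIs), but 1 Flcn KO cell held 19 of the 24 UMIs together with 91 endothelial marker UMIs, and the ratio without the highest cells was 2.69 (0.524 to 17.3). Flt1 in mural cells had 5.02 CPM in Flcn KO and 25.5 CPM in Flcn WT (ratio 0.197). There 1 Flcn WT cell held 55 of 61 UMIs with 167 endothelial marker UMIs, and the ratio without the highest cells was 1.10. In both cases the cell with the most Flt1 also carried endothelial transcripts. Flt1 in stroma had 6.41 CPM in Flcn KO and 3.58 CPM in Flcn WT (ratio 1.79, 1.34 to 2.41), beside endothelial markers summing to 148 CPM in Flcn KO and 87.3 CPM in Flcn WT. The part of these markers in the stromal ratio was not tested. Flt4 in proximal tubule had 19 UMIs in Flcn KO and 5 in Flcn WT (ratio 4.20, 1.52 to 14.4; 0.699 with no doublets removed), and in nephron progenitors 15 in Flcn KO and 44 in Flcn WT (ratio 0.465, 0.241 to 0.852). The progenitor ratio was 0.706 with a mitochondrial limit of 10%, 0.772 with no doublets removed and 0.801 at Leiden resolution 2, each inside the limit. The other called pairs rested on 30 to 59 UMIs each, and their intervals included 1. They were Kdr in proximal tubule (1.66) and in ureteric bud and collecting duct (0.614), Tek in proximal tubule (1.73), Tie1 in early nephron (0.436) and in stroma (1.70), and Flt1 in immune cells (1.63). Each of these 6 calls ended in at least 1 setting, and Kdr and Tek in proximal tubule were lower, not higher, with no doublets removed. Of the 13 receptor pairs outside endothelium past the fold, 10 stayed past it without the highest cells, and 5 then had an interval away from 1. Kdr in proximal tubule was among the 5 only without those cells, at 6.28 (1.82 to 33.4). There 1 Flcn WT cell had held 11 of 14 UMIs.

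Other genes of the pathway were taken from lists. Vegfb, a further FLT1 ligand known for roles in lipid handling, was higher in Flcn KO in 6 of 6 classes of the Six2 lineage, with ratios of 1.80 to 4.14. Podocytes had 97.3 CPM in Flcn KO and 23.5 CPM in Flcn WT (ratio 4.14, 3.36 to 5.13). Loop of Henle had 245 CPM in Flcn KO and 91.8 CPM in Flcn WT (ratio 2.67). Nephron progenitors had 57.5 CPM in Flcn KO and 32.0 CPM in Flcn WT. In the other 6 classes 0 passed the fold, with ratios of 0.864 to 1.23, although ureteric bud and collecting duct reached 1.51 at Leiden resolution 0.5.

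**Figure D5:**
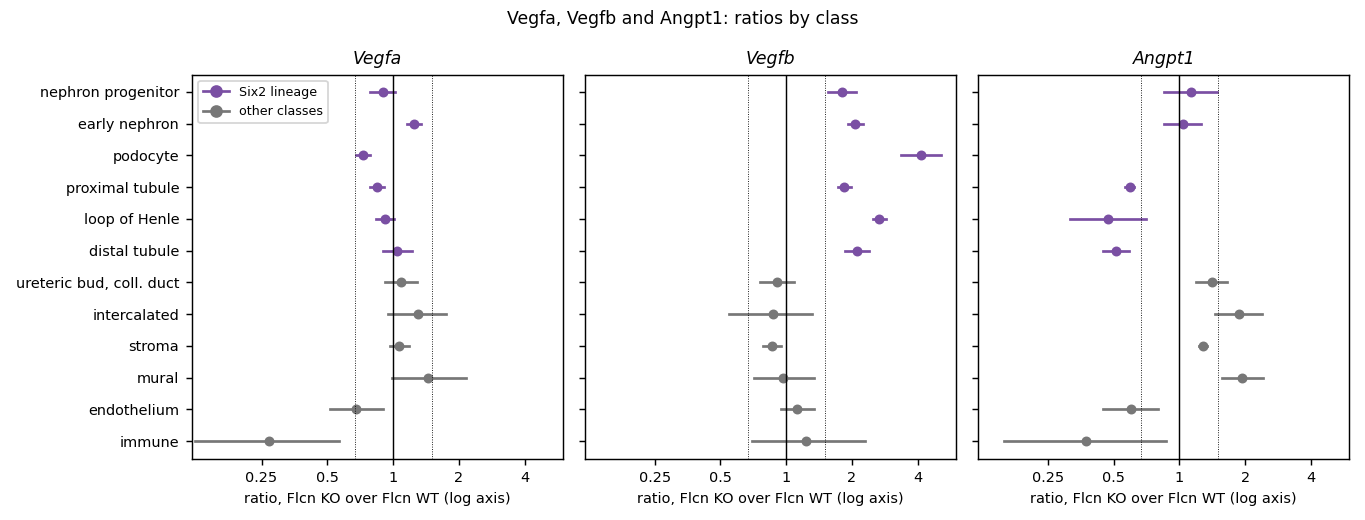
Ratio of Flcn KO to Flcn WT CPM on a log axis for Vegfa, Vegfb and Angpt1 in 12 cell classes, with points as ratios, lines as exact 95% counting intervals, dotted lines at the 1.5-fold limits and purple for classes of the Six2 lineage. Vegfb lies above the limit in the 6 purple classes (1.80 to 4.14), while Vegfa is at 0.729 in podocytes and Angpt1 at 0.594 in proximal tubule.

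Ccbe1, a cofactor that lets ADAMTS3 cleave VEGF-C into its active form, had 75.8 CPM in Flcn KO and 22.4 CPM in Flcn WT loop of Henle cells (ratio 3.38, 2.93 to 3.91). Its ratio was 5.42 in proximal tubule, 4.67 in ureteric bud and collecting duct and 4.71 in endothelium, at levels up to 10.4 CPM. Adamts3 itself had ratios of 0.835 in loop of Henle and 1.25 in proximal tubule. In nephron progenitors, where Ccbe1 had 4 UMIs in each library, Adamts3 was lower past the fold, at 4.14 CPM in Flcn KO and 6.59 CPM in Flcn WT (ratio 0.628, 0.39 to 0.99). Nrp1, a VEGF co-receptor, had 502 CPM in Flcn KO and 477 CPM in Flcn WT endothelium (ratio 1.05). Nrp2, its relative that binds VEGF-C, had 25 CPM in Flcn KO and 6.90 CPM in Flcn WT progenitors (ratio 3.62). In stroma Nrp2 had 29.7 CPM in Flcn KO and 53.6 CPM in Flcn WT (ratio 0.555). Ptprb, the phosphatase that opposes TEK, had 608 CPM in Flcn KO and 679 CPM in Flcn WT endothelium (ratio 0.896). Vegfd, another FLT4 ligand, had 46.0 CPM in Flcn KO and 26.8 CPM in Flcn WT mural cells (ratio 1.72).

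Of 12 target and effector genes of VEGF in endothelium, 0 were higher and 0 lower past the fold, and their median log2 ratio was 0.05 against -0.01 for all genes. Ets1 had a ratio of 0.994, Aplnr 0.919, Sox17 1.10 and Foxo1 1.06. Targets of hypoxia-inducible factor, which controls Vegfa in many tissues, were uneven. In loop of Henle 2 of 8 were higher and 0 lower, where 11.3% of all genes were higher and 17.8% lower, with a median log2 ratio of 0.11 against -0.07 for all genes. Ndrg1 there had 190 CPM in Flcn KO and 34.9 CPM in Flcn WT (ratio 5.43) and Ero1l a ratio of 1.70, while the glucose transporter gene Slc2a1 had 0.787. In proximal tubule 2 of 8 were higher and 0 lower, where 12.5% of all genes were higher and 13.6% lower, and Slc2a1 had 129 CPM in Flcn KO and 43.7 CPM in Flcn WT (ratio 2.96). In podocytes 1 of 8 was higher and 1 lower, where 10.9% of all genes were higher and 9.32% lower, and Adm, which encodes the vasodilator adrenomedullin, had 74.0 CPM in Flcn KO and 111 CPM in Flcn WT (ratio 0.666). In endothelium 3 of 9 were higher (Adm, Ankrd37 and Car9, named after their values were seen) and 0 lower, where 6.41% of all genes were higher and 4.87% lower, with a median log2 ratio of 0.32 against -0.01 for all genes. In immune cells 4 of 7 were higher and 0 lower, where 10.4% of all genes were higher and 11.6% lower, with a median of 0.62 against -0.02. Those 4 were Bnip3, Ankrd37, Pdk1 and P4ha1, and the intervals of Ankrd37 and Pdk1 included 1. In distal tubule 3 of 8 were higher (Adm, Ndrg1 and Ero1l) and 1 lower (Pdk1, ratio 0.422), where 12.4% of all genes were higher and 10.9% lower, with a median of 0.29 against 0.03. In nephron progenitors 2 of 9 were higher and 1 lower, and in mural cells 2 of 7 were higher and 1 lower. Stroma had 2 of 9 higher, early nephron 1 of 9, and ureteric bud and collecting duct 1 of 8, each with 0 lower. In intercalated cells 0 of 8 were higher or lower. In these classes 6.45% to 11.3% of all genes were higher and 5.46% to 12.6% lower, with medians of 0.02 to 0.23. Among 6 regulators of hypoxia-inducible factor in loop of Henle 1 was higher (Epas1, ratio 1.51) and 0 lower. Early nephron, podocytes, proximal tubule, intercalated and immune cells also had 1 higher and 0 lower. Nephron progenitors, ureteric bud and collecting duct, stroma and mural cells had 0 higher and 1 lower. Distal tubule and endothelium had 0 of either. Within single classes, 6.41% to 12.5% of all genes were higher and 4.87% to 17.8% lower.

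Likeness of pattern was taken as Pearson's r of log2(CPM + 1) over 53 profiles of cluster and library, as a description with no test. Profiles of 1 library share depth and handling. Vegfa was most like Magi2 (r = 0.885), Ddr1 (0.851) and Zfp641 (0.837). Kdr was most like Flt1 (0.899), and Flt1 was most like the endothelial adhesion gene Pecam1 (0.928). Tie1 was most like Arhgef15 (0.962), and Tek was most like Procr (0.890). The closest match was weaker for the ligands Vegfc (Paip2, 0.781), Angpt1 (Fzd1, 0.774), Angpt2 (Dgkb, 0.741) and Pgf (Dkk2, 0.704).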

How the data were processed

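Single-cell 3′ UMI counts were deposited by the authors as 1 matrix of genes and barcodes per library. Per the file headers they came from Cell Ranger 7.1.0 (Flcn KO) and 7.0.0 (Flcn WT). The submitters' processing notes name GRCm38, mm10, STAR 2.7.2a and bcl2fastq 2.20.0, with roles not given. The deposited counts are whole numbers with no normalization. The Flcn KO library held 5991 barcodes and 149679281 UMIs, and the Flcn WT library 5572 barcodes and 147390790 UMIs.

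Cells with at least 1000 UMIs, 500 genes and at most 20% mitochondrial UMIs were kept (5040 in Flcn KO, 4187 in Flcn WT). Scrublet called 2 doublets in Flcn KO and 3 in Flcn WT, too few to be working, so the 203 Flcn KO and 140 Flcn WT cells with the highest scores were removed (0.8% per 1000 barcodes). Cells were clustered with scanpy 1.11.5 and igraph 0.11.9 (2000 variable genes without the 10 genes, 40 components, 20 neighbours, Leiden resolution 1). Clusters were named at a marker score of at least 0.3, with a lead of 0.05 and 3 markers detected. These thresholds were set after the data were seen.

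UMIs were summed per class and library and divided by the total of nuclear genes. Ratios carry exact conditional Poisson intervals, levels exact Poisson intervals and shares Clopper-Pearson intervals, computed with scipy 1.17.1 and checked on simulated data. Intervals cover counting error only, not variation between animals. The minimum was 20 UMIs and the fold 1.5. Thinning was to 3000 UMIs a cell, and cells with fewer were left out. Proximal tubule, planned as the class lacking angiopoietins, held them, so podocytes (Angpt1) and immune cells (Angpt2) were used instead. edgeR 4.0.16 and DESeq2 1.42.0 in R 4.3.3 gave alternative scalings of the class sums and no test. Other alternatives were the filters, doublets, resolution, naming score, mean over cells and leaving out the highest cell of each library. The stricter naming score and the left-out cells were added after the data were seen.

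The 10 genes, the pathway lists and the tests were chosen with earlier results of these data known. Besides the 10 genes, up to 4 genes per list with the most UMIs in a class were named, with the 3 genes most like each of the 10 found by correlation, and exceptions are marked in the text. Promoter windows came from RefSeq.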

Additional observations from a re-analysis of the deposited data

Results flagged for a closer look

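Flcn KO over Flcn WT ratios lay on opposite sides of 1.5-fold in different cell classes for 4 genes, with counting intervals away from 1 that stayed so without the highest cell of each library. The difference between classes was not tested for any of them, since each group is 1 library.

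Angpt1 had ratios of 1.93 in mural cells and 1.87 in intercalated cells, against 0.473 in loop of Henle, 0.513 in distal tubule, 0.594 in proximal tubule and 0.598 in endothelium. With no doublets removed it was 0.948 in intercalated cells, 0.815 in distal tubule and 0.996 in endothelium, and as a mean over cells it was 1.48 in mural cells and 1.14 in endothelium. The loop of Henle and proximal tubule values stayed past the fold over 13 settings. Vegfc had 1.74 in ureteric bud and collecting duct and 0.463 in distal tubule. The first was 1.49 at Leiden resolution 0.5, and the distal value was 0.783 with a mitochondrial limit of 10%. Pgf had 2.91 in endothelium and 0.411 in nephron progenitors, and both kept the call over 13 settings. Flt4 had 4.20 in proximal tubule and 0.465 in nephron progenitors, from at most 44 UMIs in one library. With no doublets removed Flt4 was 0.699 in proximal tubule and 0.772 in progenitors, both below 1, and the progenitor ratio reached 0.801 at Leiden resolution 2.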

How the results depend on the processing

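No paired analysis was possible because each group is 1 library with no shared replicate number that could pair samples. All values here are log2 ratios of Flcn KO over Flcn WT unless stated. Of the alternatives for the main results, 115 values stayed near the main value and 12 moved. Staying near meant within the main counting interval for ratios, within 1.5-fold for counts of pairs and within the combined intervals for shares. Reversal was counted only for ratios past the fold. A value could stay near and still end a call, as in some settings for Angpt2 in stroma. Among the other values 925 stayed near, 94 moved and 11 reversed. These were mostly pairs of gene and class, with Vegfb, shares of cells and arterial contrasts among them. Vegfa in podocytes was -0.46, -0.59 with no doublets removed and -0.30 as a mean over cells. The value of -0.59 was just past the fold on the lower side. Angpt1 in stroma was 0.11 with a marker score of at least 0.45 and 0.27 as a mean over cells. Angpt2 in stroma was -0.36 at Leiden resolution 0.5, -0.37 at resolution 2 and -0.37 with the 10 genes among the variable genes. Angpt1 in mural cells was 0.56 as a mean over cells. Pairs higher in Flcn KO numbered 13, 22 with no doublets removed and 29 with no minimum of UMIs, and pairs lower numbered 16 and 26 with no minimum. The Angpt1 share in proximal tubule differed by -14.7 percentage points at 3000 UMIs a cell and -7.80 at 1500. With no doublets removed, Kdr (-0.86), Flt4 (-0.51) and Tek (-1.44) in proximal tubule, Angpt1 in intercalated cells (-0.059) and Angpt1 in immune cells (0.55) reversed. Kdr in proximal tubule reversed to -0.086, and in ureteric bud and collecting duct to 0.90, with at least 2000 UMIs and 1000 genes. The last reversed to 0.64 at resolution 0.5. Without the highest cell of each library, Flt1 in mural cells gave 0.090 and Angpt1 in immune cells 0.19. As a mean over cells, Angpt1 in endothelium gave 0.19. The cause was not tested. Over 13 settings the linear ratio in proximal tubule was 0.575 to 0.622 for Angpt1 and 0.330 to 0.394 for Angpt2, and Kdr in endothelium was 0.915 to 0.977. Vegfb in podocytes was 3.33 to 4.97. Scaling by TMM or median of ratios moved no call, with shifts of -0.04 to 0.07. Pairs of few UMIs are limited by depth.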
